A study of Mus musculus with 6 samples.

Results

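Mitochondrial transfer RNAs (mt-tRNAs) carry the amino acids for the small set of proteins made inside mitochondria. The members described here are the transcripts of the deposited non-coding RNA table whose identifier is annotated as Mt_tRNA in GENCODE mouse release 21, and they are 22 of the 5880 transcripts in the table. Of these, 14 lie on the plus strand and 8 on the minus strand of the mitochondrial genome, and their length is 59 to 75 bases. The study sequenced small RNA from exosomes of P19 cells, a pluripotent mouse embryonal carcinoma line, before and after neuronal differentiation, and asked which non-coding RNAs the exosomes of each state carry. Exosomes of undifferentiated cells (UD-P19, replicates 1 to 3) came from cultures moved from serum to a defined medium with N2 supplement, which was conditioned for a day. Exosomes of P19 neurons (P19N, replicates 4 to 6) came from cells differentiated with retinoic acid and then kept in neurobasal medium with B27 and N2 supplements for 8, 10 and 12 days, with 1 library at each age. The labels list no drug. By the study's methods, however, P19N neurons still divided after plating, and the cultures were given 5-fluorouridine with uridine against this. The first exposure was on day 3. The next came on day 8, when that day's medium was already off the cells, and each lasted a day. UD-P19 cultures were not described as treated in this way. All exosomes were pelleted by differential centrifugation. The groups differ in culture medium, in time in culture and in this treatment as well as in cell state, and these cannot be told apart. In the P19N group, culture age and replicate are the same thing. By these methods the medium of the 8-day library was taken before the later exposure, and that of the 10-day and 12-day libraries after it.

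In the mouse, both strands of the mitochondrial genome are copied as long precursor RNAs in which tRNAs lie between the rRNA and protein genes. The tRNAs are cut out at both ends by nuclease enzymes, and this also frees the neighbouring RNAs. Neighbours on one strand thus start out in the same precursor. The serine tRNA that reads AGY codons is unusual in mammals, because it lacks the D arm of the cloverleaf.

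Total counts per library were 454499 to 762575 in UD-P19 and 588646 to 887460 in P19N. The markers that a non-coding RNA table can hold were scarce. Of 11 neuronal marker genes 8 were in the table, with summed levels of 7.35 to 89.8 CPM (counts per 1000000 of the TMM-scaled library) in UD-P19 and 52.9 to 95.2 CPM in P19N, and of their 4 transcripts with enough counts 0 passed the edgeR test, with 0 at an unadjusted p under 0.05 and 0 called by DESeq2 or edgeR's exact test. Of 11 markers of pluripotent cells 4 were in the table, with 24.8 to 61.2 CPM in UD-P19 and 3.96 to 6.96 CPM in P19N, and 1 transcript, of Mir17hg, was lower. UD-P19 replicate 2 stood apart from replicates 1 and 3. The mitochondrial rRNAs took 1.88% of its counts, against 0.379% and 0.383%, and 40.5% of its mt-tRNA counts were exact matches, against 67.6% to 70.9% in the other 5 libraries. Its exact-match share was also the lowest over all counts, at 44.2% against 57.0% to 64.4%. Its neuronal marker sum was also the highest of the group, at 89.8 CPM, but 41 of these 76 counts were from 1 transcript of Meg3. Mir9-1, Mir9-2, Mir9-3, Mir124a-3 and Mir132 had 0 counts in every UD-P19 library, and at most 2 in any P19N library. P19N replicate 6 stood apart in the same way by its mitochondrial rRNAs, with 1.56% of its counts against 0.183% and 0.342% in P19N replicates 4 and 5, and the part of this in the mt-tRNA shares was not tested.

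The sequences of 7 mt-tRNAs carry the results below, because they passed the test or held most of the counts. They are the RNA-sense sequences of the GENCODE transcripts on GRCm38, with T for U and without the CCA end that is added after cutting. Capitals mark the anticodon. The anticodon was located by a search for a loop of 7 bases closed by a stem of 5 positions.
mt-Ts2: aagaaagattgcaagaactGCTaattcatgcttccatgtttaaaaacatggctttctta
mt-Th: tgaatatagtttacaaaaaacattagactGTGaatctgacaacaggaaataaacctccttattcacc
mt-Tq: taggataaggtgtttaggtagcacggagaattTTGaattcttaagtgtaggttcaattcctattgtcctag
mt-Tc: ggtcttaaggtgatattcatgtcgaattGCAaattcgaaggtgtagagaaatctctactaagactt
mt-Tw: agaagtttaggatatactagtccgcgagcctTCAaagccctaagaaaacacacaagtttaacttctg
mt-Ty: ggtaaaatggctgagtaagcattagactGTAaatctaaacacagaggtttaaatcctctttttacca
mt-Ts1: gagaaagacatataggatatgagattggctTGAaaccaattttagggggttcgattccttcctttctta

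The anticodon of mt-Ts2 starts at base 20, whereas those of the other 6 start between bases 29 and 33. The genes lie at chrM:11613-11671 (mt-Ts2, plus strand), chrM:11546-11612 (mt-Th, plus), chrM:3772-3842 (mt-Tq, minus), chrM:5192-5257 (mt-Tc, minus), chrM:4950-5016 (mt-Tw, plus), chrM:5260-5326 (mt-Ty, minus) and chrM:6870-6938 (mt-Ts1, minus). No 2 of the 22 mt-tRNAs share a run longer than 12 bases, which is found in mt-Tf and mt-Tv. In every library all counts of all 22 were also counted as unique by the authors' software.

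Summed over all 22, the mt-tRNAs took a larger share of P19N exosomal counts than of UD-P19 counts, and mt-Ts2 carried most of the difference. They made up 0.524%, 0.748% and 0.472% of the counts of UD-P19 replicates 1 to 3 and 1.21%, 1.12% and 2.37% of P19N replicates 4 to 6. The groups did not overlap, and the means were 0.582% ± 0.147 and 1.57% ± 0.693 (SD, n = 3 in each). The difference of the means was 0.985 percentage points, and it was 0.585 without P19N replicate 6, 0.505 with the transcript Gm42418 left out of the total, and 3.59 as a share of the unique counts. Unique counts were 62.1% to 78.0% of all counts in UD-P19 but 32.1% to 38.5% in P19N. All mt-tRNA counts were unique, so the 3.59 differs from 0.985 through these totals alone. Without mt-Ts2, left out after seeing the data, the shares were 0.303%, 0.607% and 0.276% against 0.375%, 0.396% and 1.01%, so that the groups overlapped, and the difference of the means fell to 0.199 percentage points. P19N replicate 6 was the highest library both with and without mt-Ts2. The width of an exact 95% binomial (Clopper-Pearson) interval was small beside these differences, for example 1.10% to 1.15% in P19N replicate 5, and such intervals cover counting error only. As these are shares of counts, more mt-tRNA and less of other RNAs in P19N cannot be told apart. Neither can a larger number of vesicles with these RNAs in P19N and more of them in each vesicle in such a pool. Neither can whole tRNAs and fragments, since the counts hold no read positions.

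The mt-tRNA with the most counts was mt-Ts2, the serine tRNA for AGY codons. It had 1005, 997 and 1496 counts in UD-P19 and 7409, 5533 and 7974 counts in P19N. Its level was 2461, 1178 and 2469 CPM against 8707, 7299 and 11096 CPM, so that every P19N library was above every UD-P19 library. The log2 fold change of P19N over UD-P19 was 2.15 (SE 0.371), a 4.44-fold higher level, with an adjusted p of 0.000663 in the quasi-likelihood test of edgeR. It kept its call without any single library, with log2 fold changes of 2.00 to 2.15. Scaled to the sum of the mt-tRNA counts in place of the library, which was chosen after seeing the data, its log2 fold change was 0.90 and not called (adjusted p = 0.189, edgeR), and with mt-Ts2 left out of that sum it was 1.69 (adjusted p = 0.0741). Its share of all mt-tRNA counts was 34.2% ± 13.2 in UD-P19 and 63.7% ± 5.93 in P19N (SD, n = 3 in each), and it had the most counts of the mt-tRNAs in 5 libraries. In UD-P19 replicate 2 it was 18.9% and the histidine tRNA mt-Th was ahead of it.

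**Figure D1:**
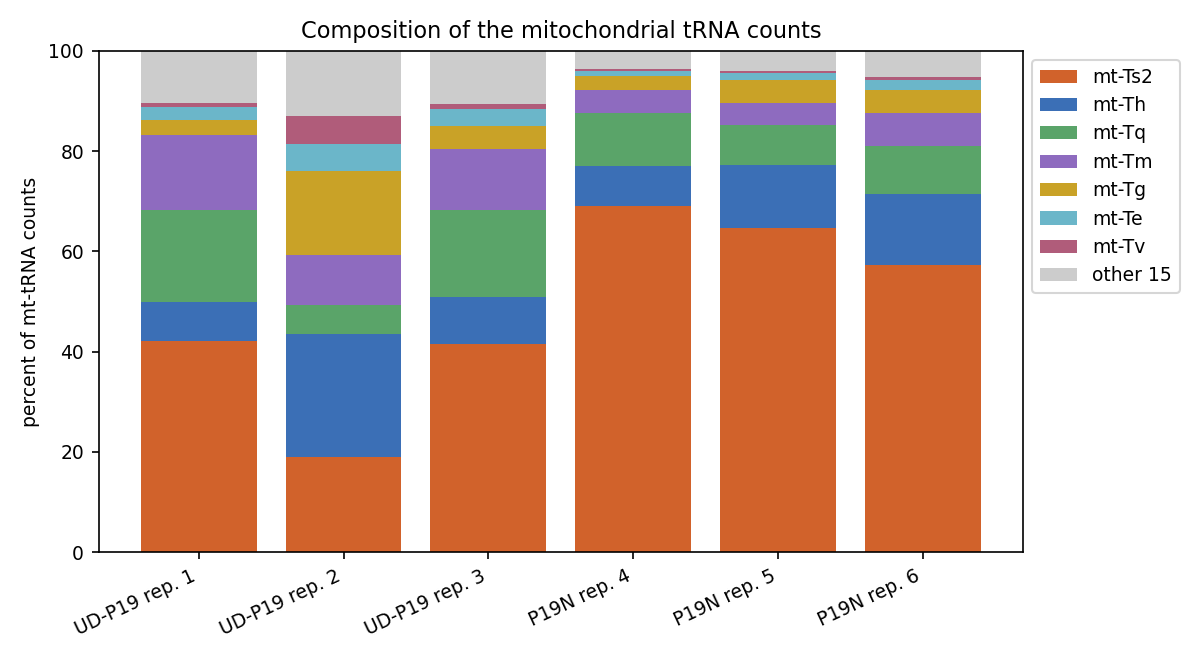
Share of the mt-tRNA counts (percent, y axis) taken by the 7 mt-tRNAs with the most counts and by the other 15, in each library (x axis). mt-Ts2 takes 57.3% to 69.0% in the P19N libraries and 18.9% to 42.2% in the UD-P19 libraries.

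In the quasi-likelihood test, 21 of the 22 mt-tRNAs had the 15 counts in total that were needed, and 5 of them were called. The exception was the leucine tRNA mt-Tl2, with 14 counts in all. Among the tested mt-tRNAs 2 were higher in P19N exosomes (mt-Ts2 and mt-Tc) and 3 were lower (mt-Tw, mt-Ty and mt-Ts1). Over all 1286 transcripts tested, 15% were called higher and 9.02% lower, that is 24.0% in either direction. The members' shares were 9.52% and 14.3%, which is near that background. The median log2 fold change was −0.03 over the 21 mt-tRNAs and 0.21 over all transcripts tested. The CPM of the groups did not overlap for 4 mt-tRNAs that were higher in P19N and 3 that were lower, where 25.2% and 16.8% of all tested transcripts were so separated. The 16 mt-tRNAs that were not called had log2 fold changes from −1.75 to 1.36 and adjusted p from 0.0671 to 0.984.

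**Figure D2:**
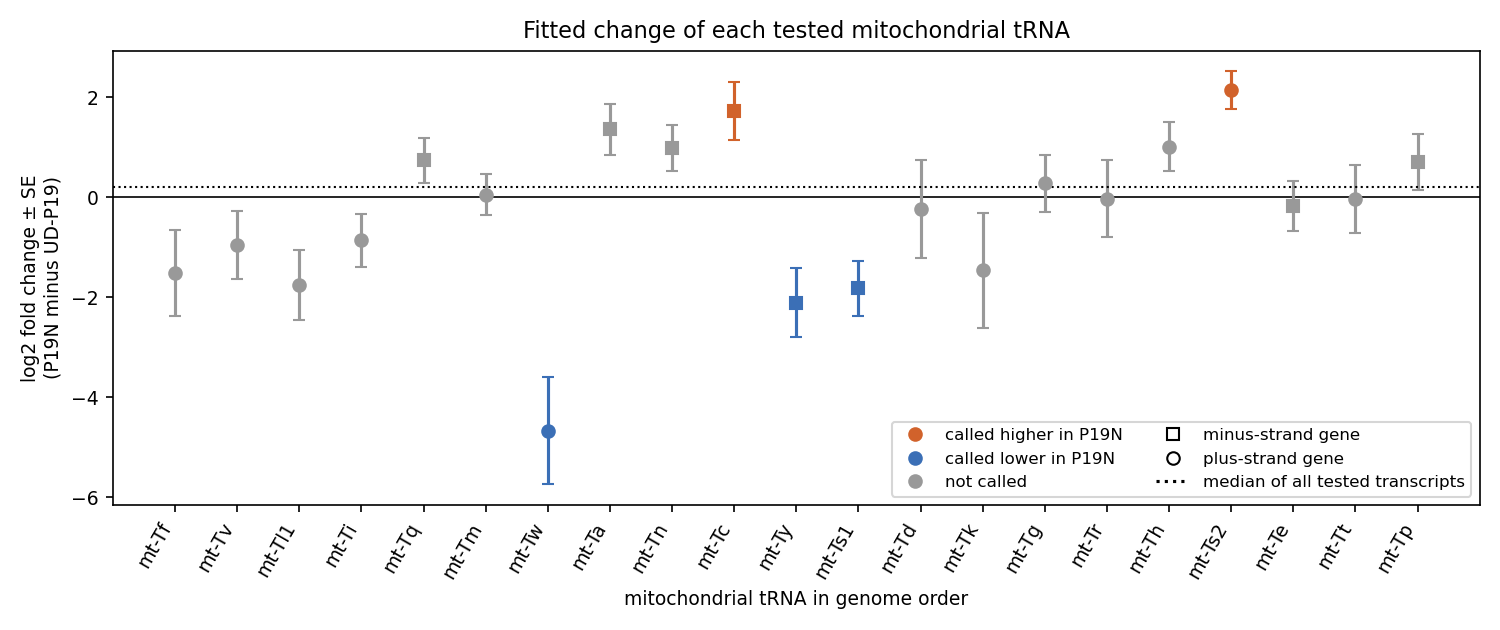
Fitted log2 fold change of P19N over UD-P19 (y axis) with its standard error for the 21 tested mt-tRNAs in genome order (x axis). Squares are minus-strand genes and circles plus-strand genes, orange and blue mark calls, and the dotted line is the median of all tested transcripts, 0.21.

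The serine tRNAs went in opposite directions. The mt-Ts1 tRNA, which reads UCN codons and lies on the minus strand at the end of mt-Co1, had 102, 85 and 156 counts in UD-P19 and 24, 33 and 72 counts in P19N. Its levels were 249.8, 100.5 and 257 CPM against 28.2, 43.5 and 100.2 CPM. The log2 fold change was −1.82 (SE 0.556, adjusted p = 0.0240, edgeR quasi-likelihood test), which is 3.53-fold lower in P19N. The groups only just separated, at UD-P19 replicate 2 and P19N replicate 6. The call was lost without UD-P19 replicate 3 (adjusted p = 0.0740), P19N replicate 4 (0.101) or P19N replicate 5 (0.107), and without P19N replicate 6 the log2 fold change was −2.47.

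The cysteine tRNA mt-Tc and the tyrosine tRNA mt-Ty are neighbours on the minus strand, 2 bases apart, and were also called in opposite directions. mt-Tc had 6, 60 and 14 counts in UD-P19 and 81, 79 and 126 counts in P19N, or 14.7, 70.9 and 23.1 CPM against 95.2, 104 and 175 CPM. The log2 fold change was 1.73 (SE 0.581, adjusted p = 0.0392, edgeR), 3.32-fold higher in P19N. UD-P19 replicate 2 was nearest to the P19N libraries, and without it the log2 fold change was 2.95. The call of mt-Tc was lost without any 1 of the other 5 libraries, with log2 fold changes of 1.17 to 1.73 and adjusted p of 0.0924 to 0.226. mt-Ty had 14, 61 and 26 counts in UD-P19 and 3, 4 and 19 counts in P19N, or 34.3, 72.1 and 42.9 CPM against 3.53, 5.28 and 26.4 CPM. Its log2 fold change was −2.11 (SE 0.687, adjusted p = 0.0336, edgeR), 4.31-fold lower in P19N. The mt-Ty call was lost without UD-P19 replicate 2 (log2 fold change −1.47, adjusted p = 0.0614), P19N replicate 4 (0.111) or P19N replicate 5 (0.136), and without P19N replicate 6 its log2 fold change was −3.46.

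The tryptophan tRNA mt-Tw, on the plus strand, was lower in P19N exosomes. It had 4, 23 and 4 counts in UD-P19 and 1, 0 and 0 counts in P19N. With 1 count in the P19N group against 31 in the UD-P19 group, the ratio of UD-P19 over P19N in scaled counts was 38.8, with a counting interval from 6.46 to 1581. The fitted log2 fold change of −4.66 (SE 1.08, adjusted p = 0.00506, edgeR) depends on how the fit treats such low counts, and was −6.44 to −4.26 without any 1 of the 5 libraries other than UD-P19 replicate 2. Most of the UD-P19 counts were in replicate 2, and without that library mt-Tw fell below the count needed for a test. The ratio was then 18.4, from 8 counts against 1, with a counting interval from 2.46 to 814.7, a value added after seeing the data.

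By group means, the histidine tRNA mt-Th and the glutamine tRNA mt-Tq followed mt-Ts2 in CPM. In UD-P19 the place of mt-Th rested on replicate 2, and in replicates 1 and 3 mt-Th was below both mt-Tq and mt-Tm. mt-Th had 186, 1298 and 341 counts in UD-P19 and 871, 1075 and 1959 counts in P19N, or 456, 1534 and 563 CPM against 1024, 1418 and 2726 CPM. The groups overlapped through UD-P19 replicate 2, and its log2 fold change of 1.01 (SE 0.488, adjusted p = 0.138, edgeR) was not called, whereas without that library it was 2.06 (adjusted p = 0.000338). mt-Tq had 434, 304 and 624 counts in UD-P19 and 1119, 678 and 1351 counts in P19N. The groups overlapped in CPM, and the log2 fold change of 0.74 (SE 0.445) was not called, with an adjusted p of 0.226 in edgeR. mt-Tg, for glycine, was spread over 71 to 880 counts in UD-P19 and 316 to 666 counts in P19N, and mt-Tm, for methionine, over 359 to 529 and 372 to 897 counts. Without UD-P19 replicate 2, 6 mt-tRNAs were called higher (mt-Ts2, mt-Tc, mt-Th, mt-Tg, mt-Ta and mt-Tn) and 1 lower (mt-Ts1), of 18 that could be tested. Over all 1145 transcripts tested in that fit 33.4% were called higher and 13.2% lower, and the median log2 fold change was 0.60, so the members' share of 33.3% higher is near the background. The alanine tRNA mt-Ta (20 to 46 counts in UD-P19, 64 to 167 in P19N) and the asparagine tRNA mt-Tn (37 to 54 and 77 to 147 counts) had groups that did not overlap in CPM, but neither was called with all 6 libraries and the filter of 15 counts. With edgeR's own filter, filterByExpr, mt-Ta was called (log2 fold change 1.45, adjusted p = 0.0232).

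The other mt-tRNAs overlapped between the groups in CPM and were not called in this fit. For valine, mt-Tv had 16 to 290 counts in UD-P19 and 42 to 87 in P19N, and the highest value was UD-P19 replicate 2. Its log2 fold change was −0.95 with that library and 0.93 without it (adjusted p = 0.136, edgeR). The leucine tRNA for UUR codons, mt-Tl1, had 12 to 168 counts in UD-P19 and 12 to 32 in P19N. Its log2 fold change of −1.75 (adjusted p = 0.0830, edgeR) was not called, but mt-Tl1 was called with all 6 libraries when no filter was applied (−1.84, adjusted p = 0.0259) or in the DESeq2 test (−1.89, adjusted p = 0.0289). It was also called without UD-P19 replicate 1 (−2.36, adjusted p = 0.0203) or replicate 3 (−2.34, adjusted p = 0.0450), and was −0.08 without replicate 2, which held 168 of the UD-P19 counts. The isoleucine tRNA mt-Ti had 34 to 54 counts in UD-P19 and 20 to 54 in P19N, and the glutamate tRNA mt-Te 62 to 286 and 97 to 251. The threonine tRNA mt-Tt had 7 to 54 and 11 to 43 counts, the proline tRNA mt-Tp 7 to 27 and 19 to 45, and the arginine tRNA mt-Tr 0 to 19 and 5 to 9.

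**Figure D3:**
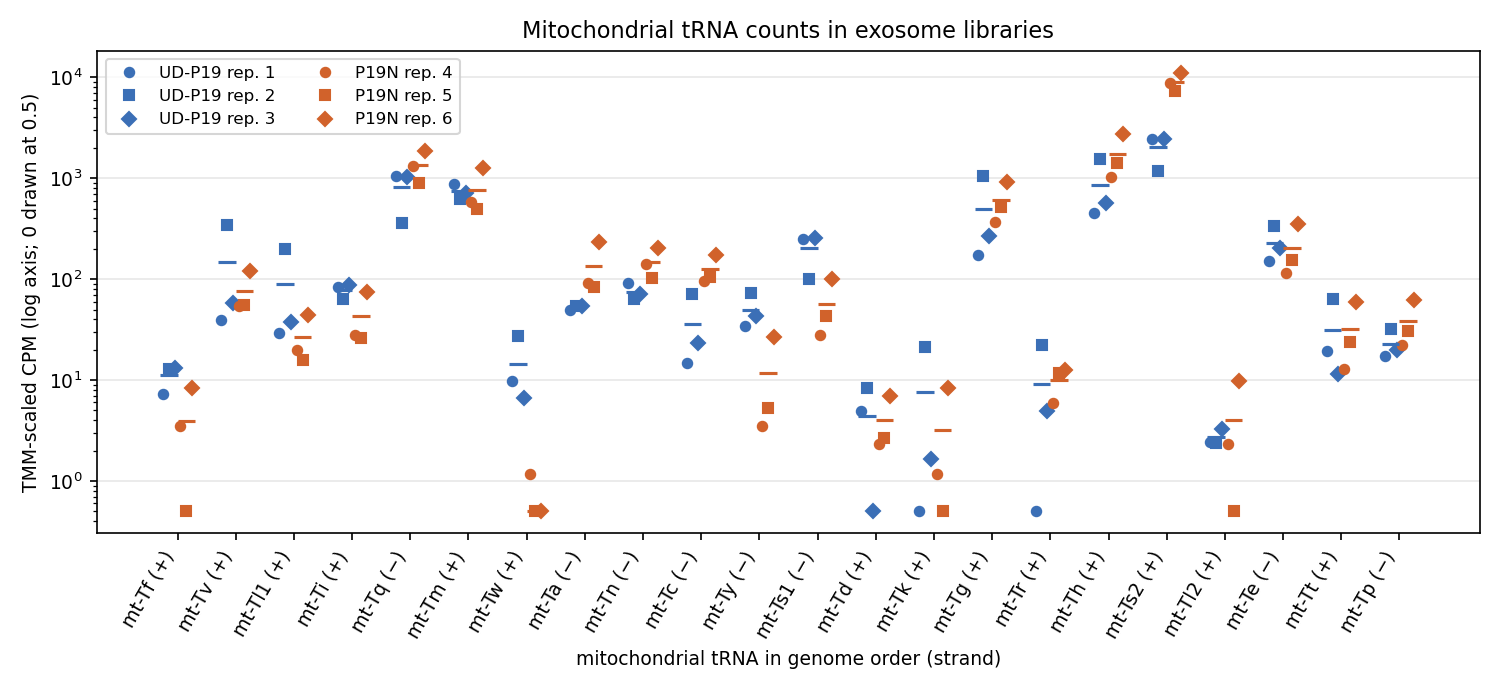
Level of each mt-tRNA in each library (TMM-scaled CPM, log y axis, with 0 drawn at 0.5) in genome order (x axis, strand in brackets). Blue is UD-P19 and orange is P19N, short lines are group means, and mt-Ts2 is at 1178 to 2469 CPM in UD-P19 and 7299 to 11096 CPM in P19N.

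The levels of the mt-tRNAs, taken as counts, spanned several orders of magnitude. The libraries were made by adaptor ligation and reverse transcription, and how evenly these steps captured different tRNAs was not tested. The spans and orders below are thus of counts and not of RNA amounts. Per kilobase of tRNA, mean levels ran from 38.1 CPM for mt-Tl2 to 34515 CPM for mt-Ts2 in UD-P19, a 906-fold span. Without UD-P19 replicate 2, left out after seeing the data, it was 3291-fold, from 12.7 CPM for mt-Tk to 41786 CPM for mt-Ts2. In P19N the same scale ran from 5.85 CPM for mt-Tw to 153120 CPM for mt-Ts2. The order was similar in both groups, with a Spearman rho of 0.90 over the 22 tRNAs, a description with no test, as all values come from the same 6 libraries. By group means per kilobase, the first 6 places in both groups were mt-Ts2, mt-Th, mt-Tq, mt-Tm, mt-Tg and mt-Te. Without UD-P19 replicate 2, an order looked at after seeing the data, the UD-P19 places were mt-Ts2, mt-Tq, mt-Tm, mt-Th, mt-Ts1 and mt-Tg, with mt-Te in place 7. The Spearman rho with the GC content of the tRNA was 0.22 for the mean level and −0.19 for the fold change, also given as a description. The lowest levels rested on few counts. The aspartate tRNA mt-Td had 2, 7 and 0 counts in UD-P19 and 2, 2 and 5 in P19N, mt-Tk for lysine 0, 18 and 1 against 1, 0 and 6, and mt-Tf for phenylalanine 3, 11 and 8 against 3, 0 and 6. mt-Tl2 had 1, 2 and 2 counts in UD-P19 and 2, 0 and 7 in P19N, and it was not tested. The other 3 were not called, with adjusted p of 0.884 for mt-Td, 0.357 for mt-Tk and 0.199 for mt-Tf in edgeR. Scaling to the sum of the mt-tRNA counts moved the median of all tested transcripts to −0.98. With it, mt-Tf (−2.82, adjusted p = 0.0113), mt-Tk (−2.74, adjusted p = 0.0175) and mt-Tv (−2.22, adjusted p = 0.00142) were also called lower in edgeR. So were mt-Ti (−2.20, adjusted p = 0.00289), mt-Te (−1.49, adjusted p = 0.0241) and mt-Tl1 (−3.04, adjusted p = 4.71e-05). The share of all transcripts called lower with this scaling is not given here, so these calls are not read as a result about the members.

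By strand, the minus-strand mt-tRNAs had a lower share of mt-tRNA counts in P19N. The share was 28.6%, 17.5% and 28.6% in UD-P19 and 14.3%, 12.6% and 15.6% in P19N, with means of 24.9% ± 6.41 and 14.2% ± 1.54 (SD, n = 3 in each), and the groups did not overlap. The plus strand carries mt-Ts2, and when mt-Ts2 was left out the shares were 49.5%, 21.6% and 48.9% against 46.2%, 35.6% and 36.6%. The difference of −10.7 points became −0.49, and it was −5.08 without the tRNA with the most counts on each strand. Without mt-Ts2 the groups overlapped through UD-P19 replicate 2 alone, and the values of replicates 1 and 3 were above those of all P19N libraries. Of 13 tested plus-strand tRNAs 1 was called higher and 1 lower, with a median log2 fold change of −0.23. Of 8 minus-strand tRNAs 1 was higher and 2 were lower, with a median of 0.72. Over all tested transcripts 15% were called higher and 9.02% lower, with a median of 0.21, and no difference between the strands is read from such small counts.

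Called mt-tRNAs lay beside mt-tRNAs that were called the other way or not called. There were 10 pairs of tRNA genes with at most 40 bases between them, and in 5 pairs the ratio of the counts differed between the groups without overlap. For 3 libraries against 3 the smallest p of an exact two-sided permutation test is 0.1, which these 5 reached (0.2 after Benjamini-Hochberg adjustment over the 10 pairs). Of all 231 pairs that can be formed from the 22 mt-tRNAs, neighbours or not, 43.3% were separated in this way, so the count of 5 in 10 is near that background and is not a result about neighbours. For mt-Tc over mt-Ty the count ratio (with 0.5 added to each count) was 0.448, 0.984 and 0.547 in UD-P19 and 23.3, 17.7 and 6.49 in P19N. For mt-Tw over mt-Ta, which lie 1 base apart on opposite strands, it was 0.220, 0.505 and 0.134 against 0.0194, 0.00775 and 0.00299, where the last 2 come from libraries with 0 mt-Tw counts and so from the added 0.5. For mt-Tq over mt-Tm the groups separated only narrowly, with 1.21, 0.575 and 1.43 against 2.28, 1.82 and 1.51. For mt-Ti over mt-Tq, which overlap by 3 bases on opposite strands, it was 0.0794, 0.179 and 0.0857 against 0.0219, 0.0302 and 0.0403. The cluster of mt-Th, mt-Ts2 and mt-Tl2, 3 genes that follow each other on the plus strand, held the tRNA with the most counts and one of those with the fewest. The pair of mt-Ts2 and mt-Tl2 is one of the 5, but mt-Tl2 had 14 counts in all and 0 in P19N replicate 5, so no difference is read from it. The ratio of mt-Th over mt-Ts2 overlapped between the groups. These ratios use the counts of the fit above and are not independent of it. Whether the counting used read strand is not stated, so reads from overlapping genes such as mt-Ti and mt-Tq cannot be assigned with certainty.

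**Figure D4:**
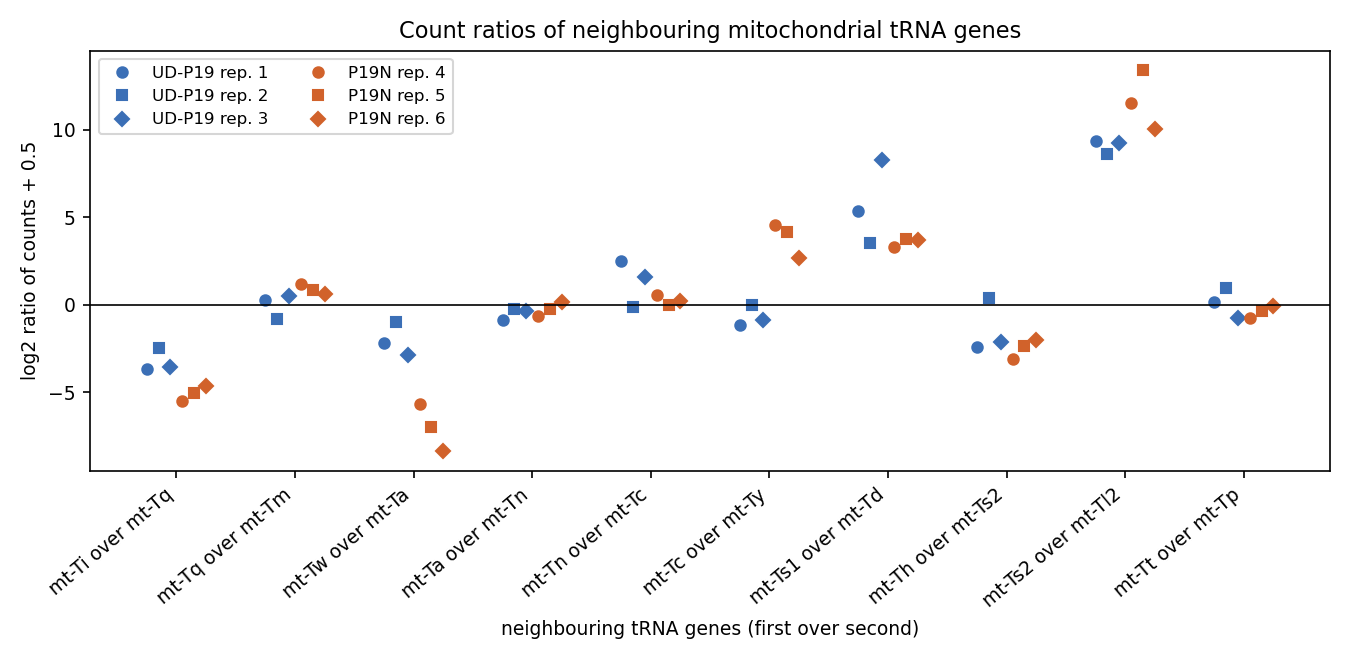
Log2 ratio of the counts, each with 0.5 added, of neighbouring mt-tRNA genes (first over second, y axis) for the 10 pairs (x axis) in each library. For mt-Tc over mt-Ty the 3 P19N libraries lie at 2.70 to 4.54 and the 3 UD-P19 libraries at −1.16 to −0.02.

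The share of counts that the deposited file lists as exact matches differed strongly between tRNAs. It was read as reads without a mismatch, which the file does not define. Among 11 mt-tRNAs with at least 15 counts in every library, the mean share was lowest for mt-Tn (20.1% in UD-P19, 32.4% in P19N) and highest for mt-Ti in UD-P19 (75.3%) and mt-Tq in P19N (78.8%). mt-Th was also low, with 37.6%, 15.6% and 31.7% in UD-P19 and 38.5%, 32.6% and 34.2% in P19N. mt-Ts2 next to it held 72.6%, 65.8% and 73.7% against 73.9%, 73.4% and 73.6%. UD-P19 replicate 2 was the lowest library at 9 of the 11. Over all mt-tRNA counts the share was 59.6% ± 16.5 in UD-P19 and 68.8% ± 1.88 in P19N (SD, n = 3 in each), with overlapping groups, and the difference of 9.13 percentage points was −0.41 without UD-P19 replicate 2.

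**Figure D5:**
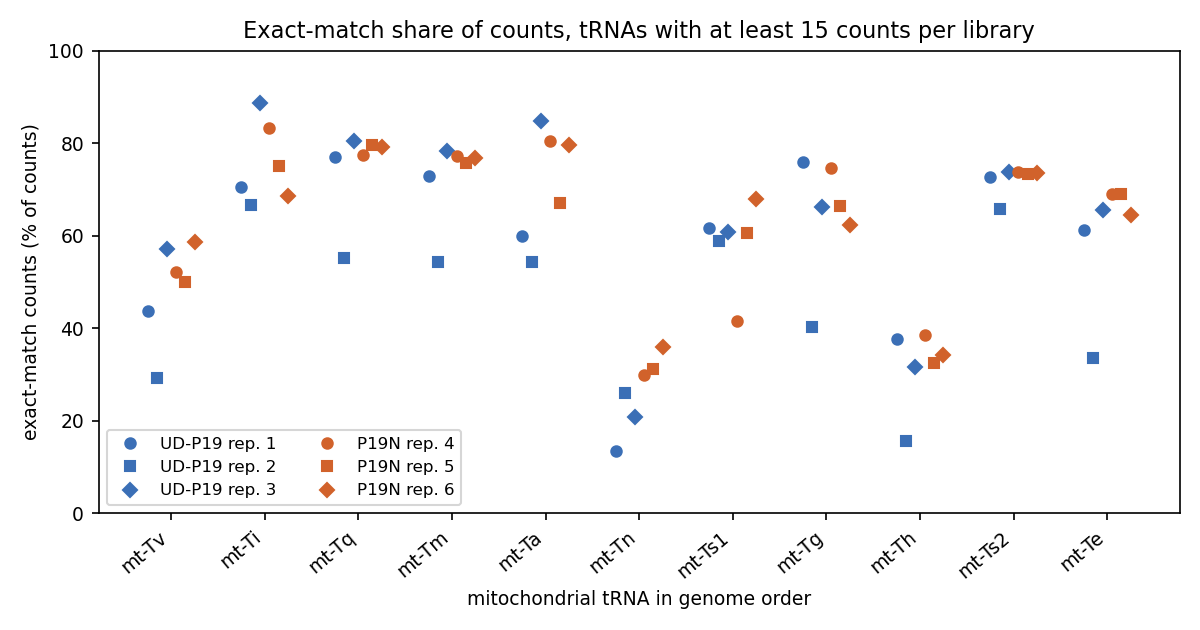
Exact-match counts as a percent of all counts (y axis) for the 11 mt-tRNAs with at least 15 counts in every library (x axis), one point per library. mt-Tn and mt-Th reach at most 36.1% and 38.5%, and UD-P19 replicate 2 is the lowest point for 9 of the 11.

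Of the other RNAs in the mitochondrial precursors, the table held mt-Rnr1 and mt-Rnr2, the small and large ribosomal RNAs, and 0 of 2 passed the edgeR test, with 0 at an unadjusted p under 0.05 and 0 called by DESeq2 or edgeR's exact test. Their log2 fold changes were −0.60 (SE 0.629, adjusted p = 0.493) and −0.39 (SE 0.593, adjusted p = 0.651) in edgeR. The ratio of mt-tRNA counts to mt-rRNA counts was 1.38, 0.398 and 1.24 in UD-P19 and 6.60, 3.29 and 1.52 in P19N. Without mt-Ts2 it was 0.801, 0.322 and 0.722 against 2.05, 1.16 and 0.650, and the groups overlapped. P19N replicate 6 and UD-P19 replicate 2 held the most mt-rRNA of the 6 libraries, 9156 and 13262 counts. For the RNAs of RNase MRP and RNase P, enzymes of RNA processing, the Rmrp entry annotated as a long non-coding RNA was higher in P19N. Its log2 fold change was 1.75 (SE 0.319, adjusted p = 0.000991, edgeR). The Rmrp entry annotated as a ribozyme (log2 fold change 1.19, adjusted p = 0.0585, edgeR) and Rpph1 (1.14, adjusted p = 0.110) were not called. The 2 Rmrp entries cover nearly the same bases, and how the counting shared reads between them is uncertain. Any part of these RNAs in the mt-tRNA differences was not tested.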

How the data were processed

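Small RNA from exosomes of UD-P19 (3 libraries) and P19N (3 libraries) was made into libraries with a small RNA kit. The authors trimmed adaptors, joined read pairs and matched them to the GRCm38 non-coding transcripts in CLC Genomics Workbench. They deposited raw counts per transcript, with further columns whose names hold the words unique mature and exact mature, called unique and exact here. Neither these columns nor the treatment of reads with several matches or of strand is defined in the sources used here. The file also holds group means and the results of the authors' own tests, which were not used, and 0 columns of other series. Of 5880 transcripts, 5777 were matched to GENCODE by identifier without version and 103 were not.

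The 1286 transcripts that held 15 or more counts over all libraries entered a quasi-likelihood fit (edgeR 4.0.16, R 4.3.3; TMM scaling; no covariate). P-values were adjusted by Benjamini-Hochberg over all of them, and 0.05 was the limit for a call. Standard errors (SE) are the log2 fold change over the square root of its F value. CPM are counts per 1000000 of the scaled library size. The labels call the UD-P19 libraries biological replicates. The paper also counts the P19N libraries as biological replicates, from independent exosome preparations. By its methods, P19N medium was collected on day 8 and on alternate days after that. Whether the 3 ages shared flasks is not stated, and if they did, the P19N libraries would not be independent cultures. Where a library shows 0, up to 3 counts remain possible. In simulated data with 200 of 1286 transcripts changed by a log2 fold change of 2, 77.5% were recovered and 3.12% of calls were false. The changed transcripts were drawn only from those with higher mean counts, with as many raised as lowered, and no library was made to deviate. These rates thus do not cover low-count members such as mt-Tw, or a library that stands apart such as UD-P19 replicate 2. All mt-tRNAs are named: those called, the 3 highest and the 3 lowest in each group with values per library, the others by range. Members and lists were chosen with earlier results of these data known. Alternatives covered the filter, scaling, test, unique and exact counts and each library left out (DESeq2 1.42.0, Python 3.11.15, pandas 2.3.3, scipy 1.17.1, matplotlib 3.10.9).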

Additional observations from a re-analysis of the deposited data

How the results depend on the processing

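mt-Ts2 was called higher in all 8 alternative filters, scalings, tests and count columns (log2 fold change 1.96 to 2.38), and mt-Tw lower in the 7 of them that tested it; filterByExpr removed mt-Tw. mt-Tc, mt-Ty and mt-Ts1 lost their calls in some: adjusted p ranged from 0.0139 to 0.0874, 0.0109 to 0.0842 and 0.00364 to 0.0624. The number of mt-tRNAs higher in P19N was 1 with DESeq2 size factors, total counts only, without Gm42418 or unique counts, and the number lower was 1 with total counts only or unique counts. Further calls among these 8 were mt-Ta with filterByExpr and mt-Tl1 with no filter or the DESeq2 test. Leaving out one library gave 1 to 6 higher and 1 to 4 lower. The 6 higher were without UD-P19 replicate 2, where 33.4% of all tested transcripts were called higher and 13.2% lower. With all libraries these shares were 15% and 9.02%. For the other alternatives such shares are not given here, so no result about the members is read from their counts. Scaled to the sum of the mt-tRNA counts, chosen after seeing the data, 0 were higher and 9 lower in edgeR's quasi-likelihood test. Without mt-Ts2 in that sum, 0 were higher and 4 lower in the same test. At an unadjusted p under 0.05, 0 and 2 were higher. These scalings shifted the median of all tested transcripts to −0.98 and −0.09. The shares of all transcripts called are again not given here. The counts of 9 and 4 are thus not read as a result about the members. No other tool was run on these scalings. With the sum, the sign turned for mt-Tq (−0.56), mt-Tm (−1.27), mt-Tn (−0.29), mt-Tg (−0.98), mt-Th (−0.27) and mt-Tp (−0.58), and without mt-Ts2 for mt-Tm (−0.49). mt-Tm also turned with DESeq2 size factors (−0.077), the DESeq2 test (−0.077) and without Gm42418 (−0.095), mt-Tr with the exact test (0.018), and mt-Tt with filterByExpr (0.039) and total counts only (0.039). None of these was called. One library left out turned mt-Tv (−1.59 to 0.93), mt-Tm (−0.46 to 0.25), mt-Tg (−0.32 to 1.74), mt-Tr (−0.74 to 1.92), mt-Te (−0.78 to 0.53) and mt-Tt (−0.82 to 1.36). The cause was not tested. The median of all tested transcripts moved from 0.21 to 0.05 with DESeq2 size factors, −0.03 without Gm42418, −0.05 with unique counts, 0.34 with total counts only and 0.60 without UD-P19 replicate 2. The mt-tRNA share of counts differed by 0.985 percentage points, by 0.199 without mt-Ts2 (chosen after seeing the data), and by 0.585 to 1.21 with one library left out. Of unique counts it differed by 3.59, where unique counts were a smaller part of the P19N libraries. The minus-strand difference of −10.7 points was −14.4 to −8.86 with one library left out, −5.08 without the mt-tRNA with the most counts on each strand and −0.49 without mt-Ts2, also chosen after seeing the data. The exact-match difference was −0.41 to 14.2 with one library left out. No paired analysis was possible because the groups share no replicate numbers. Depth limits most the 3 mt-tRNAs with under 15 counts in every library, and only 11 of the 22 reached 15 counts in every library. It also limits called members, as mt-Tw had 1, 0 and 0 counts and mt-Ty 3, 4 and 19 counts in P19N.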
